A study of Homo sapiens with 10 samples.

Results

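The RNA helicases and related ATPases that drive the splicing of pre-mRNA were examined after knockdown of one of them, DDX41. The 10 genes are DDX46, DDX42, DDX23, SNRNP200, DHX16, DDX41, DHX38, DHX8, DHX15 and EIF4A3, chosen by name for their place in the splicing cycle. All 10 have a row in the count tables, where 32705 genes were seen at all in the 10 libraries, and 9 of them were among the 16143 genes that passed the filter on low counts and were tested. DHX16 was listed at 0 in every library and was not tested. RNA-sequencing was performed on polyadenylated RNA of U2OS cells, which derive from a human osteosarcoma, 48 h after knockdown with a pool of control siRNAs (siCtrl, 5 libraries) or of siRNAs against DDX41 (siDDX41, 5 libraries). Both groups share the cell line, the medium and the time point. Totals ran from 23393764 to 24598860 counts in the siCtrl libraries and from 21807041 to 24896398 in the siDDX41 libraries. Nothing in the labels says that the replicates came from separate cultures, so the p-values measure the spread between these libraries, which may be technical. The comparison asks whether transcripts of the other ATPases of the splicing cycle differ after knockdown of DDX41, which left part of its transcript. No second siRNA reagent and no rescue is among the samples. Effects of lower DDX41 and other effects of the siRNAs therefore cannot be told apart.

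The spliceosome assembles anew on each intron from small nuclear ribonucleoproteins (snRNPs) and many further proteins, and it is rearranged at nearly every step by an ATPase of the DEAD-box, DEAH-box or Ski2-like type. These enzymes unwind short RNA duplexes or pull on RNA, and in this way they place the U2 snRNP on the branch site, exchange U1 for U6 at the 5′ splice site, free U6 from U4, allow branching and exon ligation, release the spliced mRNA and take the spliceosome apart. DDX41 is found with spliceosomes of the catalytic stage, is essential in many cell types and is mutated in familial myeloid leukaemia.

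The siRNAs target DDX41 (ENSG00000183258.11, chromosome 5, 177511577 to 177516961 on GRCh38, minus strand). Its level was 49.1, 49.4, 47.3, 47.2 and 50.5 CPM (edgeR's depth-scaled counts, with TMM factors) in siCtrl replicates 1 to 5, and 11.5, 13.7, 12.4, 11.2 and 12.3 CPM in siDDX41 replicates 1 to 5. Every library labelled siDDX41 was low and every library labelled siCtrl was high, and the groups did not overlap. The mean was 48.7 ± 1.43 CPM (SD, n = 5) after control knockdown and 12.2 ± 1.00 CPM (SD, n = 5) after DDX41 knockdown. The log2 fold change was -1.99 (SE 0.05, 95% confidence interval -2.09 to -1.89), a 3.98-fold lower level with an adjusted p of 4.47e-24 (quasi-likelihood test of edgeR, Benjamini-Hochberg adjusted over all tested genes), and 201 tested genes had a lower log2 fold change. The exact two-sided permutation test on the mean log2 CPM gave p = 0.00794, the smallest that groupings of 5 against 5 libraries can give. In these bulk libraries, fewer cells expressing a gene and less RNA per cell cannot be told apart.

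Among all tested genes, 30.3% were upregulated and 32.1% downregulated at an adjusted p under 0.01 (62.4% in either direction), so a change in a given gene was common in this comparison. Of the 8 other members tested, 4 were upregulated (DDX42, SNRNP200, DHX15 and EIF4A3), 2 were downregulated (DDX23 and DHX8) and 2 did not pass the test (DDX46 and DHX38). All 8 had over 50 CPM, and among the 4902 tested genes with at least 50 CPM on average 76.5% passed in either direction, a share close to that of the members. The changes of the members were small. With an added limit of 0.25 on the log2 fold change, none of the 8 was upregulated and DDX23 alone was downregulated, where 21.1% of all tested genes were upregulated and 25.4% downregulated, and where 44.5% of the genes with at least 50 CPM passed in either direction. DDX23 passed this limit narrowly, at -0.264. The limit would be missed with an offset for GC content (-0.198), with upper-quartile factors (-0.247) and without siCtrl replicate 4 (-0.249) or siDDX41 replicate 3 (-0.247). The GC content in this offset was that of each gene's longest annotated transcript. The median log2 fold change of the 8 was 0.07, against -0.0014 over all tested genes and 0.04 over those with at least 50 CPM. The median absolute log2 fold change was 0.13 for the 8 members, 0.28 for all tested genes and 0.22 for those with at least 50 CPM.

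**Figure D1:**
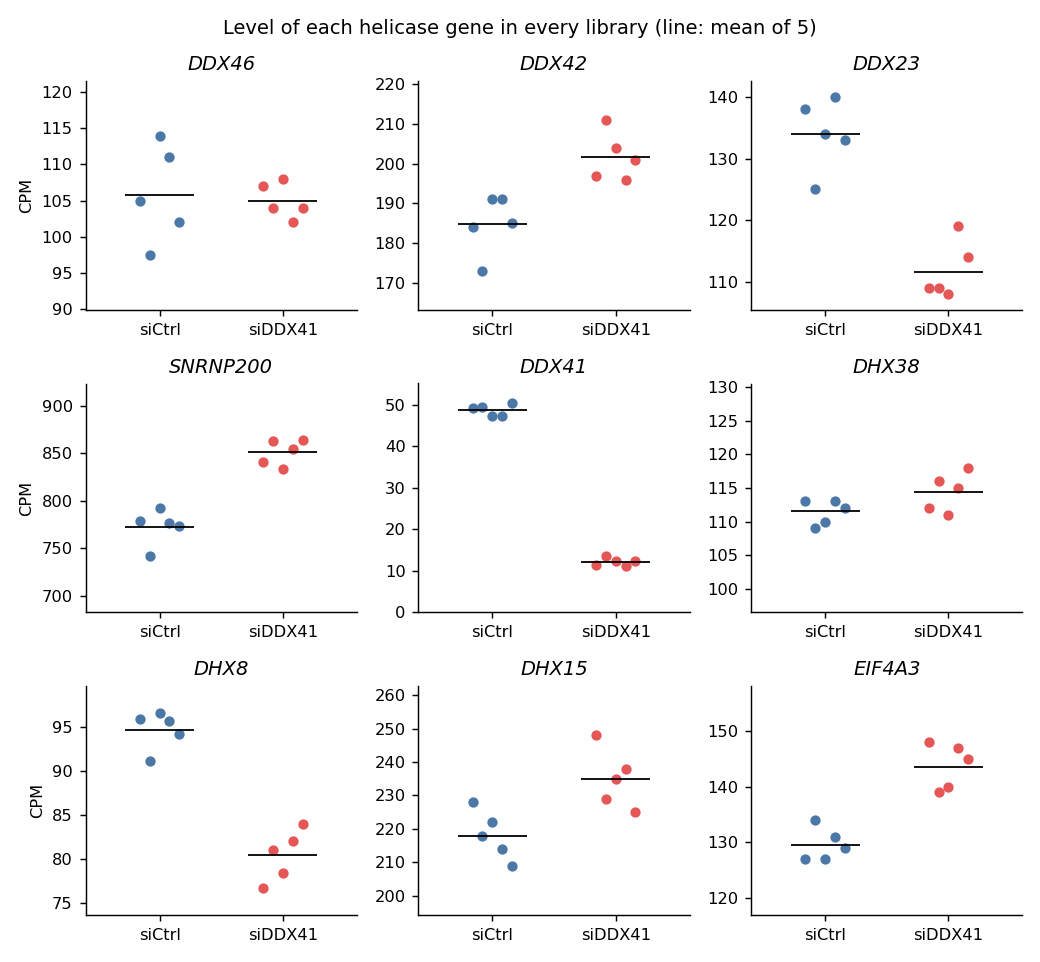
CPM of the 9 tested members in every library, siCtrl in blue and siDDX41 in red, with a line at the mean of 5 libraries; the axis of DDX41 starts at 0 and the other axes do not. DDX41 falls from about 48.7 to 12.2 CPM, DDX23 and DHX8 are lower and DDX42, SNRNP200 and EIF4A3 higher with no overlap, and the groups overlap for DDX46, DHX38 and DHX15.

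The prespliceosome comes first in the cycle. DDX46 (ENSG00000145833.15, plus strand of chromosome 5, 134758771 to 134855133), the homologue of yeast Prp5, acts when the U2 snRNP joins the branch site. DDX46 was at 105, 97.4, 114, 111 and 102 CPM in siCtrl replicates 1 to 5 and at 107, 104, 108, 102 and 104 CPM in siDDX41 replicates 1 to 5. The siDDX41 values all lay inside the range of the siCtrl values. The log2 fold change was -0.01 (95% confidence interval -0.08 to 0.06, adjusted p = 0.82 by edgeR's quasi-likelihood test). With an offset for GC content it was -0.07 (adjusted p = 0.0333 by edgeR's test), which did not pass either.

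DDX42 (ENSG00000198231.12, plus strand of chromosome 17, 63773603 to 63819317) binds the SF3B1 protein of the U2 snRNP. DDX42 was at 184, 173, 191, 191 and 185 CPM in siCtrl replicates 1 to 5 and at 197, 211, 204, 196 and 201 CPM in siDDX41 replicates 1 to 5. All siDDX41 libraries were above all siCtrl libraries. Over all tested genes the groups did not overlap in this direction for 26.7%, and they did not overlap in the other direction for 29.3%. The log2 fold change was 0.13 (SE 0.03, 95% confidence interval 0.06 to 0.19, adjusted p = 0.000492), a level 9.15% higher.

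The next enzymes turn the assembled spliceosome into an active one. DDX23 (ENSG00000174243.9, minus strand of chromosome 12, 48829756 to 48852842), the homologue of Prp28, releases U1 from the 5′ splice site. DDX23 was at 138, 125, 134, 140 and 133 CPM in siCtrl replicates 1 to 5 and at 109, 109, 108, 119 and 114 CPM in siDDX41 replicates 1 to 5. The siDDX41 libraries were all below the siCtrl libraries, and of the 8 other members DDX23 had the lowest log2 fold change. It was -0.26 (SE 0.03, 95% confidence interval -0.33 to -0.20, adjusted p = 4.79e-08), which is 1.20-fold lower. With an offset for GC content DDX23 was at -0.20 and DHX8 was the lowest of the 8, at -0.23.

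SNRNP200 (ENSG00000144028.14, minus strand of chromosome 2, 96274338 to 96321271) encodes the human Brr2, the Ski2-like helicase of the U5 snRNP that unwinds U4 from U6. SNRNP200 was at 779, 742, 792, 777 and 773 CPM in siCtrl replicates 1 to 5 and at 841, 863, 834, 855 and 864 CPM in siDDX41 replicates 1 to 5. The groups did not overlap. Its log2 fold change was 0.14 (SE 0.02, 95% confidence interval 0.09 to 0.19, adjusted p = 1.12e-05 by edgeR's test), a level 10.2% higher. With the offset for GC content it was 0.21.

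DHX16 (ENSG00000204560.9, minus strand of chromosome 6, 30653119 to 30673006), the homologue of Prp2, remodels the activated spliceosome just before branching. It was listed at 0 in all 10 libraries, so that no fold change can be given. The 0 is shared with its surroundings. All 13 protein-coding genes within 100 kb were listed with at most 10 counts over all libraries, and of the 68 protein-coding genes that start within 1 Mb of the DHX16 start (DHX16 included) 54 were at 0, or 79.4%, against 14.0% of the 19629 protein-coding genes with a row. TUBB, a tubulin gene used by nearly all cells and picked here after its value was seen, lies in the same stretch of chromosome 6 and was also listed at 0. The value of DHX16 is therefore not read as a level of expression, and the cause of the zeros was not tested. Of the genes in the further splicing lists, DDX39B within 1 Mb of the DHX16 start and LSM2 just beyond 1 Mb were also at 0, as were FRG1 on chromosome 4, LENG1 on chromosome 19 and CWC25 on chromosome 17. PRPF8 and PRPF31, core proteins of the tri-snRNP, had 2 and 7 counts over all 10 libraries. Of their protein-coding neighbours within 100 kb, 4 of 9 for PRPF8 and 8 of 12 for PRPF31 had at most 10 counts over all libraries. None of these low values is read as a level of expression either.

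DHX38 and DHX8 act at the catalytic stage. DHX38 (ENSG00000140829.11, plus strand of chromosome 16, 72093613 to 72112912), the homologue of Prp16, remodels the spliceosome between branching and exon ligation. DHX38 was at 113, 109, 110, 113 and 112 CPM in siCtrl replicates 1 to 5 and at 112, 116, 111, 115 and 118 CPM in siDDX41 replicates 1 to 5. The groups overlapped. The log2 fold change of 0.04 (95% confidence interval -0.02 to 0.09) did not pass, with an adjusted p of 0.254 by edgeR's test. With an offset for GC content the log2 fold change of DHX38 was 0.13 and it passed (adjusted p = 5.68e-05 by edgeR's test), and over all 18 alternative fits its adjusted p ranged from 5.68e-05 to 0.429.

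DHX8 (ENSG00000067596.10, plus strand of chromosome 17, 43483865 to 43610338), the homologue of Prp22, releases the spliced mRNA. DHX8 was at 95.9, 91.2, 96.6, 95.7 and 94.2 CPM in siCtrl replicates 1 to 5 and at 76.8, 81.1, 78.4, 82.1 and 84.0 CPM in siDDX41 replicates 1 to 5. Every siDDX41 library was below every siCtrl library, with a log2 fold change of -0.24 (SE 0.03, 95% confidence interval -0.30 to -0.17, adjusted p = 1.31e-07), a 1.18-fold lower level.

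DHX15 (ENSG00000109606.12, minus strand of chromosome 4, 24517441 to 24584554), the homologue of Prp43, takes the spliceosome apart after release of the mRNA and also serves in ribosome assembly. DHX15 was at 228, 218, 222, 214 and 209 CPM in siCtrl replicates 1 to 5 and at 248, 229, 235, 238 and 225 CPM in siDDX41 replicates 1 to 5. The highest siCtrl library was above the lowest siDDX41 library, so the groups overlapped. The log2 fold change was 0.11 (SE 0.03, 95% confidence interval 0.05 to 0.17, adjusted p = 0.00201), and the exact two-sided permutation test gave p = 0.0159. Without siCtrl replicate 5 or siDDX41 replicate 1 the log2 fold change stayed close, at 0.09 each, and the adjusted p by edgeR's test narrowly missed the threshold, at 0.0117 and 0.0104. With the offset for GC content the log2 fold change itself was smaller, at 0.03, with an adjusted p of 0.293 by edgeR's test. The GC value behind this offset was that of the longest annotated transcript. For DHX15 that transcript has 4 exons and need not be the mRNA counted. Over all 18 alternative fits the adjusted p of DHX15 ranged from 0.000417 to 0.329.

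EIF4A3 (ENSG00000141543.9, minus strand of chromosome 17, 80134369 to 80147151) clamps the exon junction complex onto spliced RNA upstream of the exon junction. EIF4A3 was at 127, 134, 127, 131 and 129 CPM in siCtrl replicates 1 to 5 and at 148, 139, 140, 147 and 145 CPM in siDDX41 replicates 1 to 5. All siDDX41 libraries were above all siCtrl libraries. EIF4A3 had a log2 fold change of 0.15 (SE 0.03, 95% confidence interval 0.09 to 0.21, adjusted p = 3.53e-05), and the exact two-sided permutation test gave the smallest possible p of 0.00794, as it did for DDX42, DDX23, SNRNP200 and DHX8. The same exact test gave p = 0.873 for DDX46 and p = 0.0873 for DHX38.

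Some members share exon bases with a neighbouring gene that also had counts. DHX38 shares 4.25% of its exon bases with TXNL4B and 6.86% with PMFBP1 on the other strand, DHX8 shares 0.632% with ETV4 on the other strand, and DDX46 shares 2.56% with C5orf24 on the same strand. The strand setting of the counting is not given in the sources used here, so reads in these stretches cannot be assigned to either gene with certainty. The share of mitochondrial transcripts also moved with the groups, from 1.13% to 1.69% of counts in the siCtrl libraries and from 2.00% to 2.29% in the siDDX41 libraries, and its part in the small changes of the members was not tested.

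To compare the members with each other, CPM was divided by length. Merged exons take in every annotated transcript of a gene. The longest annotated transcript has 2 exons for EIF4A3 and 4 for DHX15. Neither length need be that of the mRNA counted, so the order between members is approximate. Per kb of merged exons, the order in the siCtrl libraries was SNRNP200 (69.1 CPM per kb), DHX15 (26.7), EIF4A3 (22.4), DDX42 (21.7), DDX23 (18.2), DHX38 (17.7), DDX41 (11.7), DDX46 (11.5) and DHX8 (8.80 CPM per kb). The ranges over the 5 libraries overlapped between EIF4A3 and DDX42, between DDX23 and DHX38 and between DDX41 and DDX46, and the other neighbours in this order were apart. After DDX41 knockdown DDX41 moved from rank 7 to rank 9, at 2.93 CPM per kb, and DHX38 stood above DDX23 at 18.1 against 15.1 CPM per kb. Per kb of the longest transcript this exchange was not seen, and DDX23 stayed above DHX38 after DDX41 knockdown, with ranges of 28.9 to 31.8 against 25.8 to 27.3 CPM per kb. Divided by the longest annotated transcript instead, 5 of the 9 genes kept their rank in the siCtrl libraries. SNRNP200, DHX15 and DHX8 were among those that kept it, and DDX42 then stood above EIF4A3, at 42.6 CPM per kb, with ranges that did not overlap. DDX41 was then at rank 8 in the siCtrl libraries, below DDX46, at 16.5 against 18.6 CPM per kb, and these ranges did not overlap either.

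The promoters of DDX41, of the 2 members that fell and of SNRNP200 and EIF4A3, the upregulated members with the smallest adjusted p, are printed to show which promoter letters the changed genes carry. They hold the 250 bases before the start of each gene in RefSeq on GRCh38.p14, 5′ to 3′ on the strand of the gene, and a promoter was found for all 10 members. RefSeq and GENCODE place some starts differently: the windows of SNRNP200 and DDX23 lie inside the gene bounds given above, and those of EIF4A3 and DHX8 overlap them in part. DDX23 lies at chr12:48852164-48852413 (minus strand), SNRNP200 at chr2:96305547-96305796 (minus), DDX41 at chr5:177516962-177517211 (minus), DHX8 at chr17:43483725-43483974 (plus) and EIF4A3 at chr17:80147129-80147378 (minus). Capitals mark matches, on either strand, to the motifs searched: the ETS motif CCGGAAG, the NRF1 motif GCGCATGCG, the CCAAT box (CCAAT), the GC box (GGGCGG) and the TATA box (TATAAA). The motifs were chosen after the promoters of the members had been read.
DDX23: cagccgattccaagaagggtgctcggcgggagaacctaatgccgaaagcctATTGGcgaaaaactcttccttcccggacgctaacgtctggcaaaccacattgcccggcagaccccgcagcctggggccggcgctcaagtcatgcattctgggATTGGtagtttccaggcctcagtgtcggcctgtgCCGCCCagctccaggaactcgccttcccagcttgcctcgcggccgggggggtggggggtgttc
SNRNP200: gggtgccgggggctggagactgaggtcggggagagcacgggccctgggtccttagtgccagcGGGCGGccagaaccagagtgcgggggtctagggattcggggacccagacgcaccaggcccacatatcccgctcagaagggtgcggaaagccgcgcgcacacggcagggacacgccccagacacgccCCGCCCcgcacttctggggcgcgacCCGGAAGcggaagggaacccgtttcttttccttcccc
DDX41: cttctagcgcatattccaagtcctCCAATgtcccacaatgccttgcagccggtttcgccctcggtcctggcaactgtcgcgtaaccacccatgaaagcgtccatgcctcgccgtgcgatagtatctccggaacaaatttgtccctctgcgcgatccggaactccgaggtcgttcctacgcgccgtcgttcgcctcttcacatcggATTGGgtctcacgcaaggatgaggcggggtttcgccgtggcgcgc
DHX8: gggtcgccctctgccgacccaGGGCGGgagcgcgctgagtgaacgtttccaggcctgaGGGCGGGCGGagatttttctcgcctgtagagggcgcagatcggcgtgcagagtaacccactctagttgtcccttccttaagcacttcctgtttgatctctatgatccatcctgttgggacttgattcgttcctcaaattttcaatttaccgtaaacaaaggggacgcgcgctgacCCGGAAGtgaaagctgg
EIF4A3: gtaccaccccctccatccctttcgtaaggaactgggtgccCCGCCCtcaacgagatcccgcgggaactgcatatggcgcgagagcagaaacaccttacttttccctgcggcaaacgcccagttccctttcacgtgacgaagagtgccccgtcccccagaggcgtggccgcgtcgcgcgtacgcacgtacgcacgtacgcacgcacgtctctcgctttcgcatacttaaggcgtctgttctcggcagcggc
Among the printed promoters, the GC box occurs in DDX23, SNRNP200, DHX8 and EIF4A3, which include genes that fell and genes that rose. The CCAAT box occurs in DDX23, which fell, and not in SNRNP200 or EIF4A3, which rose, but DHX8 fell without it, and of the members not printed DHX15, which was upregulated, and DHX38, which did not pass, hold it. DDX41 holds it as well, but as the target of the siRNAs it is left out of this comparison. Of the 10 members, 8 hold the GC box, 6 the ETS motif and 4 the CCAAT box, and none holds the NRF1 motif or the TATA box in this window. Among the 11491 promoters of tested genes matched by symbol, 65.7% hold the GC box, 15.1% the ETS motif, 34.5% the CCAAT box, 3.01% the NRF1 motif and 5.53% the TATA box. Over all 35116 promoters of the table the shares are 42.6%, 8.52%, 32.0%, 1.64% and 10.7% in the same order. The 6 members with the ETS motif are DDX46, DDX42, SNRNP200, DHX16, DHX38 and DHX8. Their count is a description of letters chosen with the sequences in view.

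The list of other ATPases linked to splicing, which includes the GTPase EFTUD2, held genes that changed in both directions. Of the 9 listed, 8 were tested and DDX39B, which loads export factors on mRNA, was at 0. Of the 8, 2 were upregulated, 2 were downregulated and 4 did not pass, beside 30.3% and 32.1% of all tested genes. Neither share was above that of all tested genes. DHX9, a nuclear helicase of double-stranded RNA, rose from 432 ± 8.70 to 468 ± 7.62 CPM (SD, n = 5 each), with a log2 fold change of 0.12 (adjusted p = 0.000143 by edgeR's test). DDX5, an abundant RNA helicase and transcriptional coactivator, had a log2 fold change of 0.08 and passed narrowly (adjusted p = 0.009 by edgeR's test). It did not pass with the GC offset (0.02, adjusted p = 0.473 by edgeR's test). With a replicate block, or without any of siCtrl replicates 1, 2, 4 and 5 and siDDX41 replicates 1, 2 and 4, its log2 fold change stayed at 0.07 to 0.08 but its adjusted p was between 0.0136 and 0.0325. The close paralogue DDX17 fell from 430 ± 19.9 to 329 ± 14.9 CPM, with a log2 fold change of -0.39 (adjusted p = 3.12e-11 by edgeR's test). EFTUD2, the GTPase that sits beside SNRNP200 in the U5 snRNP, had a log2 fold change of -0.17 (adjusted p = 1.51e-06). Thus the U5 neighbours SNRNP200 and EFTUD2 changed in opposite directions. DDX39A (-0.09), AQR (-0.08), DHX35 (0.01) and DDX3X (0.08) did not pass, and the median log2 fold change of the 8 was -0.03. Of these, DDX3X stood close to the threshold (adjusted p = 0.0104) and passed in 7 of the alternative fits at a log2 fold change of 0.08 to 0.09: with DESeq2 size factors (0.00721), upper-quartile factors (0.00171), the DESeq2 test (0.00228) and limma (0.00737), and without siCtrl replicate 4 (0.00837), siDDX41 replicate 2 (0.00413) or siDDX41 replicate 5 (0.00773). The sign of DHX35 turned without siCtrl replicate 2 (-0.02), siCtrl replicate 5 (-0.03) or siDDX41 replicate 1 (-0.02), and it passed in none of these fits. AQR passed with the GC offset, where its log2 fold change was -0.14, while DDX39A was then at 0.01 and passed without siCtrl replicate 3 (adjusted p = 0.00787) or 4 (0.00708).

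**Figure D2:**
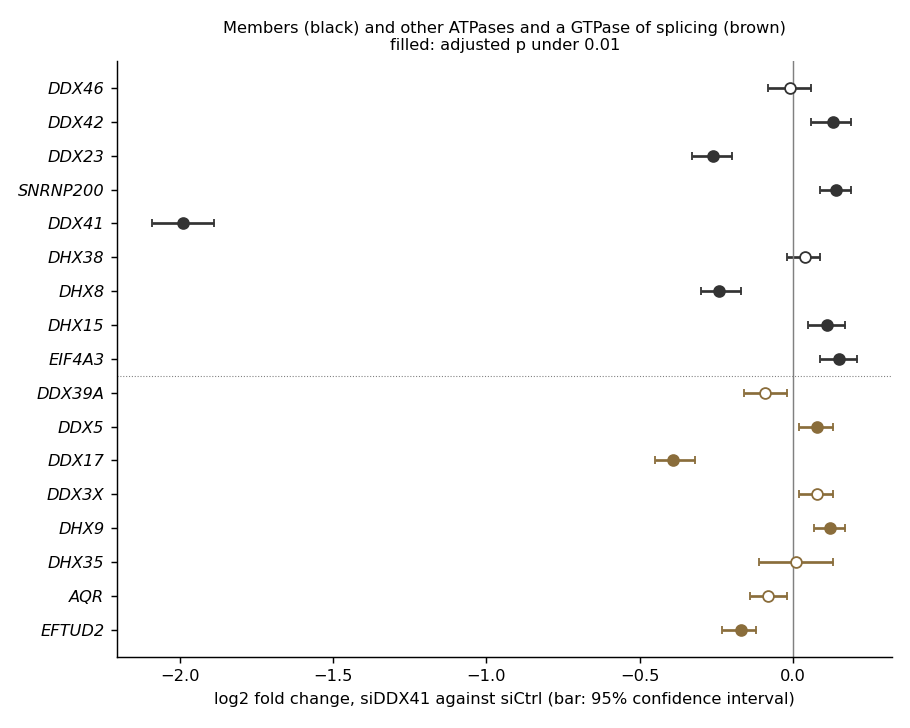
Log2 fold change (siDDX41 against siCtrl) with its 95% confidence interval for the 9 tested members in black, in the order of the splicing cycle, and for 8 further splicing ATPases and GTPases in brown; filled dots passed an adjusted p under 0.01. DDX41 stands at -1.99, and the other genes lie between -0.39 (DDX17) and 0.15 (EIF4A3).

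Several of these helicases work through cofactors, such as the G-patch proteins that stimulate DHX15 and DHX16. Of 22 cofactors tested, 8 were upregulated (36.4%) and 4 downregulated (18.2%), beside 30.3% and 32.1% of all tested genes, with a median log2 fold change of 0.08. With the limit of 0.25 on the log2 fold change they were 6 and 4, where the shares of all tested genes were 21.1% and 25.4%. GPATCH4, a G-patch partner of DHX15, was at 42.5 ± 1.73 CPM in siCtrl and 72.9 ± 2.40 CPM in siDDX41 (SD, n = 5), a log2 fold change of 0.78. However, 98.1% of its exon bases are shared with NAXE on the other strand, so its counts are uncertain. CMTR1, the cap methyltransferase that binds DHX15, fell with a log2 fold change of -0.50 from 93.7 ± 1.97 to 66.4 ± 1.96 CPM. RBM10, a splicing regulator with a G-patch, fell with a log2 fold change of -0.54 from 108 ± 5.16 to 74.0 ± 2.78 CPM. It shares 6.96% of its exon bases with NDUFB11 on the other strand, which had 15685 counts over all libraries.

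The U2 snRNP is the substrate of DDX46 and the partner of DDX42, and its list here also includes the associated factors U2AF1, U2AF2 and SF1. Of the 18 tested genes of this list, 6 were upregulated (33.3%) and 3 downregulated (16.7%). The shares of all tested genes were 30.3% and 32.1%, and the median log2 fold change of the list was 0.05. With the limit of 0.25 on the log2 fold change they were 3 and 1, where 21.1% of all tested genes were upregulated and 25.4% downregulated. SF3B6, which touches the branch site region, had a log2 fold change of 0.29, SNRPA1 had 0.35 and the polypyrimidine tract binding U2AF2 had -0.23. U2AF1 had between 7 and 25 counts per library and is not described further. For the U4/U6.U5 tri-snRNP, which DDX23 and SNRNP200 act on, 9 of 17 tested genes were upregulated (52.9%) and 4 downregulated (23.5%, median 0.19), or 5 and 1 with that limit. PRPF6, the bridge between U5 and U4/U6, rose with a log2 fold change of 0.44. The U4/U6 proteins PRPF3 and PRPF4, which bind each other, moved apart: PRPF3 went from 53.0 ± 2.66 to 75.4 ± 2.99 CPM (log2 fold change 0.51) and PRPF4 from 69.4 ± 1.57 to 53.0 ± 1.18 CPM (log2 fold change -0.39), each with n = 5 and SD.

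In the Prp19 complex and related proteins (NTC), which join as the spliceosome is activated, 12 of 20 tested genes were upregulated and 5 downregulated. The shares of all tested genes were 30.3% and 32.1%, and the list had a median log2 fold change of 0.19. Most of these NTC genes had at least 50 CPM. Among all tested genes at that level 76.5% passed in either direction, with a median of 0.04. With the limit of 0.25 on the log2 fold change the NTC genes that passed were 8 and 1, beside 21.1% and 25.4% of all tested genes. The DESeq2 test gave 3 downregulated genes. BUD13 had the lowest log2 fold change among them (-0.74, from 27.2 ± 0.982 to 16.3 ± 0.743 CPM), and PPIL1 (0.45) and BUD31 (0.35) rose, although 38.7% of the exon bases of BUD31 are shared with PTCD1 on the other strand. Among the step 2 and C complex factors, which work beside DDX41, DHX38 and DHX8, 8 of 18 tested genes were upregulated (44.4%) and 2 downregulated (11.1%, median 0.11). Under the limit of 0.25 they were 4 and 0 by edgeR's test, beside 21.1% and 25.4% of all tested genes. At an adjusted p under 0.05, 5 were downregulated, and the share of all tested genes at that threshold is not given here. NOSIP (0.30) and PRPF18 (0.44, at 8.60 ± 0.245 CPM in siCtrl) rose and PPIG (-0.20) fell, and 14.9% of the exon bases of PRPF18 are shared with FRMD4A, a gene with more counts.

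In the exon junction complex and its periphery, where EIF4A3 is the ATPase, 4 of 11 tested genes were upregulated (36.4%) and 5 downregulated (45.5%, median -0.05). With the limit of 0.25 on the log2 fold change they were 2 and 4, beside 21.1% and 25.4% of all tested genes. CASC3, a core subunit that binds EIF4A3, fell from 171 ± 3.26 to 98.4 ± 2.80 CPM (log2 fold change -0.80, adjusted p = 2.59e-20 by edgeR's test). RNPS1, a peripheral splicing regulator, fell from 146 ± 5.05 to 91.7 ± 3.21 CPM (log2 fold change -0.67), and PNN, its partner, rose from 109 ± 2.98 to 159 ± 3.11 CPM (log2 fold change 0.54). EIF4A3 itself thus rose slightly while its partner CASC3 fell. Of the 6 genes for spliceosome disassembly, the step of DHX15, 2 were upregulated and 0 downregulated by edgeR's test, with 1 downregulated at an adjusted p under 0.05. GCFC2 had a log2 fold change of 0.46, CWF19L2 had 0.21, and PAXBP1, which did not pass, had -0.10 and passed with the GC offset (-0.15) or without siDDX41 replicate 2 (-0.13). GCFC2 shares 2.42% of its exon bases with MRPL19 on the other strand, a gene with more counts. Over these 8 lists with each gene counted once, 119 of 126 genes were tested, 51 were upregulated (42.9%) and 25 downregulated (21.0%), with a median of 0.06, beside 30.3% and 32.1% of all tested genes. Under the limit of 0.25 the 119 held 29 upregulated and 12 downregulated genes, beside 21.1% and 25.4% of all tested genes. Many of the 119 had at least 50 CPM. Of all tested genes at that level 76.5% passed in either direction, or 44.5% with the limit, and their median was 0.04.

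Across the DDX and DHX family, most of which act outside splicing, 41 genes other than the members were tested, of which 19 were upregulated (46.3%) and 7 downregulated (17.1%), beside 30.3% and 32.1% of all tested genes (median log2 fold change 0.12). With the limit of 0.25 on the log2 fold change they were 8 and 5, beside 21.1% and 25.4% of all tested genes. DDX60L (0.84) and DDX60 (0.65), which are induced by interferon, and DDX21 (0.33), a nucleolar helicase, had the highest log2 fold changes outside the other lists. DDX54 (-0.58), DDX11 (-0.46) and DHX33 (-0.36) had the lowest, and DDX11 has near-identical copies in the genome that can share its reads. DDX41 itself was the lowest of the 49 tested genes of the family.

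Genes whose pattern over the 10 libraries was most like that of DDX41 were ABCB9, KDM5C, SIRPA, SLC25A23 and GTSE1, each with a Pearson correlation of 0.999 of log2 CPM among the 11277 genes with at least 5 CPM. This likeness mostly restates the difference between the groups, since 2020 genes had a correlation over 0.95. SLC25A23 had a log2 fold change of -2.79, ABCB9 -2.26, SIRPA -1.33, KDM5C -1.03 and GTSE1 -0.53.

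The libraries carried the markers of the cell line. The summed level of the 10 U2OS markers was 9400, 9310, 9520, 9220 and 9420 CPM in siCtrl replicates 1 to 5 and 9090, 9340, 9200, 9110 and 9390 CPM in siDDX41 replicates 1 to 5, with SPARC at 2990 CPM on average. COL1A2 stayed under 30 counts in every library. Of the 9 tested, 3 were upregulated (33.3%) and 4 downregulated (44.4%), beside 30.3% and 32.1% of all tested genes. Among them were CD44 (log2 fold change 0.37), MYC (0.51) and THY1 (-0.74). The 15 markers of other cell types summed to 29.6, 29.4, 30.3, 29.6 and 30.1 CPM in siCtrl replicates 1 to 5 and to 21.3, 24.4, 24.4, 22.5 and 21.9 CPM in siDDX41 replicates 1 to 5. EPCAM was at 8.14 CPM on average, CD3E and HBB were at 0 in every library, and 6 others stayed under 30 counts. KRT5 (-3.41, from 5.24 ± 0.290 to 0.488 ± 0.121 CPM), CDH5 (-1.49) and VWF (-0.99) fell and 0 of the 8 tested rose by edgeR's test, with 1 rising at an adjusted p under 0.05. The downregulated share of the 8 was 37.5%, beside 32.1% of all tested genes, of which 30.3% were upregulated. The DESeq2 test, run without the filter on low counts, gave 6 downregulated markers of the 15, and the additional ones were outside the 8.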

How the data were processed

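Counts of reads per gene were made and deposited by the authors, who mapped single reads to hg38 with STAR 2.7 and an earlier Gencode release and counted them with featureCounts 1.6, after demultiplexing with bcl2fastq 2.19 (versions from the submitters' processing notes). The library kit keeps the strand. How the counting treated strand and multi-mapping reads is not given in the sources used here.

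Groups and replicate numbers came from the sample labels. Genes were joined to GENCODE 44 on GRCh38, the same build, by Ensembl identifier without version, and 98.7% of the tested genes matched. Counts were filtered by filterByExpr, scaled by TMM and compared with the quasi-likelihood test of edgeR 4.0.16 in R 4.3.3, with Benjamini-Hochberg adjustment over the 16143 tested genes and a threshold of 0.01. Standard errors were derived from the F statistic. Exact two-sided permutation tests used Python 3.11.15. DESeq2 1.42.0, a later release of the tool used by the study, and limma 3.58.1 served as alternatives. Beside them stood other scalings, no filter, a replicate block, an offset for GC content, other thresholds and leaving out each library. GC content was taken from the longest annotated transcript of a gene, which may differ from the mRNA counted (98.7% of tested genes had a value). The fits were tested on simulated counts with 200 genes changed by 1.5-fold. The main edgeR fit recovered 198 of these, with 3 false calls. Far fewer genes changed there than in the real libraries, and by more than the members other than DDX41 did. The simulation therefore did not test calls of that size. The common biological coefficient of variation was 3.65%, and the totals of 21807041 to 24896398 counts limit the precision of low genes most.

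The members and gene lists were chosen with earlier results of these data known. Named genes are the members, the other splicing ATPases, up to 3 genes with the smallest adjusted p of each further list, the 3 highest and 3 lowest other DDX and DHX genes that passed with at least 5 CPM in a group, and the 5 genes most like DDX41. Genes that a list count or a value at 0 singles out were named in addition, after their values were seen. Protein and siRNA sequences were not used here.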

Additional observations from a re-analysis of the deposited data

How the results depend on the processing

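The fall of DDX41 and the calls of DDX42, DDX23, SNRNP200, DHX8 and EIF4A3 kept their direction and their side of the threshold in all 18 alternative fits, with DDX41 between -2.04 and -1.90 on the log2 scale. Leaving out each library gave -2.04 to -1.96 for DDX41, -0.29 to -0.247 for DDX23, 0.10 to 0.14 for DDX42, -0.038 to 0.016 for DDX46, 0.09 to 0.13 for DHX15, 0.03 to 0.05 for DHX38, -0.25 to -0.22 for DHX8, 0.14 to 0.16 for EIF4A3 and 0.13 to 0.15 for SNRNP200, with 3 to 4 other members upregulated and 2 downregulated. The sign of DDX46, which passed in none of these fits, turned with upper-quartile factors (0.007) and without siCtrl replicate 3 (0.016), siCtrl replicate 4 (0.007) or siDDX41 replicate 4 (0.003), and the DESeq2 test put it at 0.00. With the GC offset DHX15 was lost (0.03) and DHX38 gained (0.13), with or without the replicate block; the cause was not tested. With the limit of 0.25 on the log2 fold change, 0 other members were upregulated and 1 downregulated (DDX23, which lies inside the limit with the GC offset and with upper-quartile factors). Under that limit the upregulated genes numbered 0 for the other ATPases, 3 for the U2 snRNP, 5 for the tri-snRNP, 4 for the step 2 factors, 2 for the exon junction complex, 1 for disassembly and 8 for the DDX and DHX family, and the downregulated genes 1 each for the other ATPases, the U2 snRNP, the tri-snRNP and the NTC and 0 for the step 2 factors. At an adjusted p under 0.05, downregulated genes numbered 4 for the other ATPases, 5 for the step 2 factors and 1 for disassembly, and 1 marker of other cell types was upregulated. The DESeq2 test gave 3 downregulated NTC genes and 6 downregulated markers of other cell types; the cause was not tested. Other scalings, added for the lists after the data were seen, moved no list count by over 1.5 times. Divided by the longest transcript, 5 of 9 members kept their rank. Libraries with the same replicate number did not deviate together (correlations of -0.078 to 0.0598, and 2 of 10 libraries correlated best with their own number). With the replicate block DDX41 was at -1.99, or -1.90 with the GC offset as well, 4 other members were upregulated and 2 downregulated, and 1 of the other ATPases was upregulated. No library stood apart for any of the 17 tested members and other ATPases. Depth limits genes of few counts, such as COL1A2 and the markers of other cell types. The cause of the few counts of U2AF1 was not tested.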
